A study of Mus musculus with 13 samples.

Results

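A set of 8 genes of the protein kinase C (PKC) family, Prkca, Prkcb, Prkcd, Prkce, Prkch, Prkci, Prkcq and Prkcz, was followed across single excitatory neurons. The neurons came from microdissections of the mouse claustrum, a thin sheet of grey matter under the insular cortex. The 8 genes were taken by name out of 23427 genes listed in either of 2 tables. Cells were used where they held at least 1 count of Snap25, a presynaptic gene of neurons, and at least 1 count of Slc17a7, which encodes a vesicular glutamate transporter. This kept 1011 of 1112 harvested cells. The kept cells were divided by Synpr, the gene of the vesicle protein synaptoporin and a marker of claustrum neurons, into 438 Synpr-high cells with at least 200 CPM (counts scaled to a cell total of 1000000) and 573 Synpr-low cells. Of these, 397 had no Synpr count, and 37 lay between 50 and 500 CPM, with 13 at or over the limit and 24 under it. The cells nearest to the limit had 177.6, 180.2 and 199.9 CPM on one side and 209.3, 234.7 and 275.2 CPM on the other. The cells and classes were thus selected on Snap25, Slc17a7 and Synpr, whose levels are descriptions. Over the 4 mice, Synpr was at 1728 ± 198 CPM in Synpr-high and 9.12 ± 3.25 CPM in Synpr-low cells (mean ± SD of the summed counts of a mouse), Snap25 at 4702 ± 928 and 3899.9 ± 885 CPM, and Slc17a7 at 135 ± 21.1 and 153 ± 18.8 CPM. The isoforms were chosen by name, at a point when their levels in these cells were known.

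All 4 animals were mature male C57BL/6 mice. In the blindly sampled mouse, rAAV2-retro-CAG-GFP placed in the anterior cingulate cortex marked the claustrum for dissection and played no part in choosing cells. Projection mice 1, 2 and 3 carried green retrobeads in the lateral entorhinal cortex (LEC) and red retrobeads in the retrosplenial cortex (RSC), and their cells were picked either for a bead label or without one. The kept cells comprised 286 LEC-labeled, 247 RSC-labeled and 478 unlabeled cells, the last including all 238 of the blindly sampled mouse. A sum of counts over the cells of 1 mouse in 1 class was the unit of each test, and each n given is a number of mice. The main fits held no term for the mouse, so sums of the same mouse were treated as independent.

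Median totals per kept cell were 26023 counts in the blindly sampled mouse and between 138535 and 154262 in the projection mice. Depth goes with that split of the mice and cannot be told apart from it. Per the paper's methods, the plates were divided over flow cells with different read lengths. Which plates ran on which is not stated. Cells labeled for different targets lay on different plates in each mouse, except on plate 12 of projection mouse 3, which held both. The defining markers of claustrum neurons followed the Synpr classes. The 6 marker genes listed for the first of the study's claustrum populations, Synpr among them, summed to between 5696 and 6534 CPM in Synpr-high and 341 and 744 CPM in Synpr-low cells. The 3 genes of the second population, Slc30a3 among them, summed to 47.7 to 101 CPM and 641 to 1876 CPM, and 7 markers of cortical layer 6 to 15.0 to 28.0 CPM and 124 to 273 CPM. Markers of both the second population and layer 6 were thus present in the Synpr-low class. The paper proposes a cortical phenotype for a further cluster that was enriched for layer 6 markers. The Synpr-low class may therefore hold cells that the paper does not count as claustrum neurons. Among markers of other cells, 4 oligodendrocyte genes summed to 22.8 to 311 CPM in Synpr-high and 42.4 to 502 CPM in Synpr-low cells, and 3 inhibitory genes to 0 to 36.0 CPM and 0 to 32.6 CPM. Their part in the results was not tested.

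PKC enzymes are serine and threonine kinases that carry receptor signals from the cell membrane. The conventional isoforms, such as those encoded by Prkca and Prkcb, need both calcium and diacylglycerol, the lipid that phospholipase C releases. A second group, encoded by Prkcd, Prkce, Prkch and Prkcq, responds to diacylglycerol without calcium, and the atypical isoforms, encoded by Prkci and Prkcz, need neither. In neurons the family is known for adjusting transmitter release, ion channels and synaptic strength.

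The sequences next to the starts of Prkcd and Prkca are shown because these 2 isoforms separated the neurons in opposite directions. Each run below is the 250 bases before a RefSeq transcript start on the GRCm38.p6 build, read 5′ to 3′ on the minus strand of chr14:30626209-30626458 for Prkcd and of chr11:108343889-108344138 for Prkca. Capitals mark the motifs GGGCGG, a GC box, and TATAAA, searched on both strands.
Prkcd: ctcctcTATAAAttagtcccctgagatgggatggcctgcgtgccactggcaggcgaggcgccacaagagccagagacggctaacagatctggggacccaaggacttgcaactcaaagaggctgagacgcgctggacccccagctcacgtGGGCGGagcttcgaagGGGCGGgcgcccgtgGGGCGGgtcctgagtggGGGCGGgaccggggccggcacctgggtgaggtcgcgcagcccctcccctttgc
Prkca: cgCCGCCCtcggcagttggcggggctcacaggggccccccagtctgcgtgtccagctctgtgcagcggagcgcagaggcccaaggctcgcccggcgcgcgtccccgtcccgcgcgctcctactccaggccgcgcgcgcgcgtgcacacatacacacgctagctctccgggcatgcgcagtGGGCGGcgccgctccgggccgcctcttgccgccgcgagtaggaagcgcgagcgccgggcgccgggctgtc
The Prkcd window held 4 GC boxes, 1 TATAAA and 18 CpG pairs at 67.6% GC. The Prkca window held 2 GC boxes, no TATAAA and 39 CpG pairs at 76.8% GC. Among 32851 RefSeq promoter windows of the same length, 32.7% held GGGCGG and 12.4% held TATAAA, and the median number of CpG pairs was 6. The window of Prkcd is that of 1 of its 2 listed starts. The matches describe letters and were not tested for function.

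Of the 8 isoforms, 5 made up nearly all of their summed counts. Prkce, a calcium-independent isoform, had the highest share in Synpr-high cells, at 48.7 ± 3.02% of the counts of all 8 (mean ± SD, n = 4 mice), followed by Prkcb at 27.5 ± 3.38% and Prkcz at 11.2 ± 1.68%. In Synpr-low cells the same 3 isoforms held 45.0 ± 1.39%, 36.4 ± 1.61% and 9.84 ± 2.09%. Prkci held 1.73 ± 0.603% in Synpr-high and 1.82 ± 0.467% in Synpr-low cells. The classes parted over Prkcd and Prkca. Prkcd held 9.17 ± 4.39% of the summed counts in Synpr-high and 0.0439 ± 0.0217% in Synpr-low cells, and Prkca held 1.57 ± 0.281% and 6.86 ± 1.04%. For Prkcd, Prkca and Prkcb the shares of the 4 mice did not overlap between the classes. Shares of 1 total are tied to each other and were given no test. The 8 together stood at 986 ± 37.4 CPM in Synpr-high and 1178 ± 121 CPM in Synpr-low cells, with ranges of 943 to 1024 and 1079 to 1350.4 CPM over the mice.

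**Figure D1:**
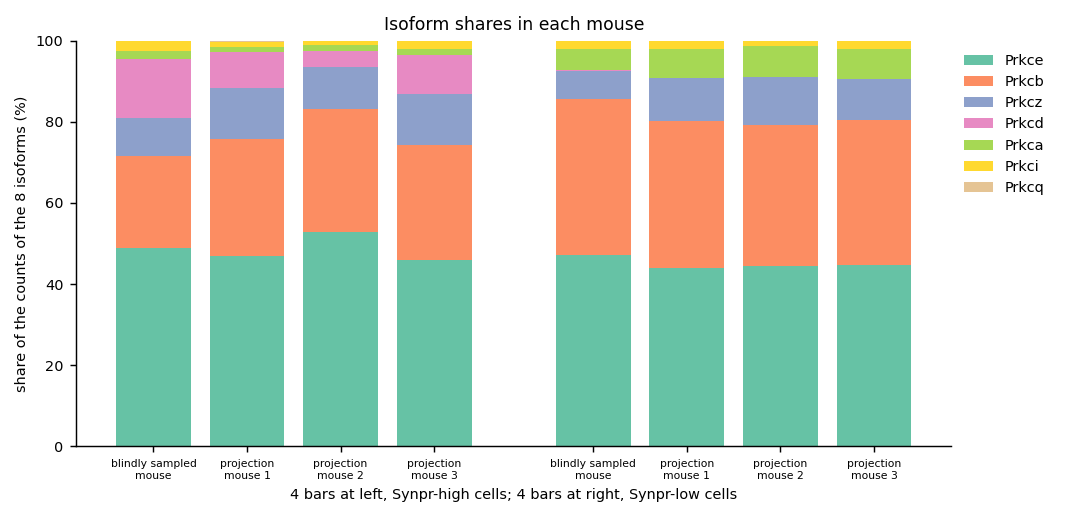
Share of each isoform in the summed counts of the 8 PKC isoforms (y axis, percent), with 1 stacked bar per mouse, at left for Synpr-high and at right for Synpr-low cells. Prkcd takes 3.85 to 14.6% of each left bar and under 0.1% of each right bar, where Prkca takes 5.37 to 7.75%.

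Divided by the length of the longest annotated transcript, the order at the top changed. Prkcb then led at 81.6 ± 11.7 CPM per kilobase in Synpr-high cells, beside 76.8 ± 6.54 for Prkce, values that lay within each other's spread (SD, n = 4 mice). In Synpr-low cells the length-scaled levels were 129 ± 19.3 for Prkcb and 85.0 ± 11.4 CPM per kilobase for Prkce, and Prkcb was first in every mouse. On the same scale Prkcd, at 31.5 ± 14.6, and Prkcz, at 27.1 ± 4.26, did not differ beyond their spread in Synpr-high cells. Reads of this library type come mainly from 3′ ends, so counts need not grow with transcript length and dividing by it can distort the order. The order by CPM, with Prkce first in every mouse and class, is therefore the main one. The length-scaled order is given as an alternative. Prkci lay lower, at 16.9 ± 5.43 CPM in Synpr-high and 21.6 ± 6.51 CPM in Synpr-low cells. Prkcq, the theta isoform, best known from T cells, had counts in 12 of all 1112 harvested cells, and Prkch had none. For Prkch, 0 of 124954446 counts in the 773 kept cells of the projection mice allows a level of up to 0.0240 CPM, and the table of the blindly sampled mouse does not list it. Both genes stayed under the filter on low counts, so 6 of the 8 isoforms were tested.

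Prkcd, the delta isoform, stood high in Synpr-high and near 0 in Synpr-low cells. Its level in these cells was 141 CPM in the blindly sampled mouse and 89.6, 38.9 and 89.5 CPM in projection mice 1, 2 and 3. In the Synpr-low cells of the same mice it was 1.02, 0.429, 0.288 and 0.406 CPM, from 4, 8, 6 and 11 counts. The lowest Synpr-high sum, that of projection mouse 2, stood far above the highest Synpr-low sum, so the groups did not overlap, as for 6.98% of all genes in this direction. The log2 fold change was 7.75 (standard error 0.52, 95% interval 6.58 to 8.92, adjusted p = 2.1e-05 by the quasi-likelihood F test of edgeR, with p corrected after Benjamini and Hochberg), and Prkcd was higher in 4 of 4 mice. Within plates, the direction was the same on all 12 of the 13 plates that held at least 5 cells of both classes, with 24.0 to 170 CPM against 0 to 1.34 CPM. The call held under all 17 alternatives, at adjusted p values of 0.0017 or less.

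Prkca, the alpha isoform, a conventional member, ran the other way. Synpr-high cells had 19.1 CPM in the blindly sampled mouse and 13.5, 15.0 and 14.3 CPM in projection mice 1, 2 and 3. Synpr-low cells had 72.5, 82.3, 83.6 and 81.3 CPM in the same order. The 4 low sums were close to each other and all far above the 4 high ones, a gap in that direction that 8.77% of genes showed. The log2 fold change was -2.32 (standard error 0.17, 95% interval -2.69 to -1.96, adjusted p = 2.8e-05 in edgeR's quasi-likelihood test), with Prkca lower in 4 of 4 mice and on 12 of 12 plates. This call also held under all 17 alternatives. An exon of Prkca overlaps one of Apoh on the opposite strand, and whether counting used the strand is not stated.

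Prkcb, the beta isoform, showed a smaller difference in the same direction as Prkca. It was at 219, 293, 307 and 267 CPM in the Synpr-high cells of the blindly sampled mouse and projection mice 1 to 3, against 522, 424, 376 and 399 CPM in their Synpr-low cells. The groups did not overlap, as for 8.77% of genes in this direction. The gap between the nearest sums, 307 and 376 CPM, was narrow beside their spread. The log2 fold change was -0.62 (standard error 0.14, 95% interval -0.94 to -0.30, adjusted p = 0.0226 in edgeR's quasi-likelihood test), lower in 4 of 4 mice. Within plates it was lower on 12 of 12, at 196 to 355 CPM against 324 to 557 CPM. Without projection mouse 1 the change was -0.67 (adjusted p = 0.103 by edgeR), and without projection mouse 3 it was -0.65 (adjusted p = 0.115), so the size held while the call was lost.

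**Figure D2:**
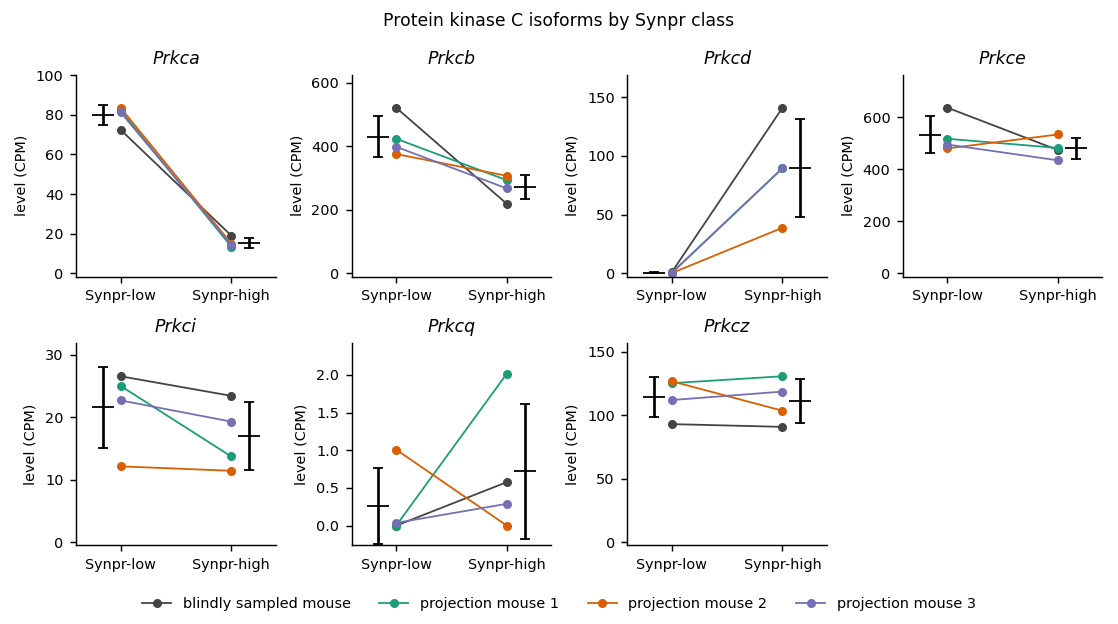
Level of 7 isoforms (y axis, CPM of the summed counts, each panel from its own 0) in Synpr-low and Synpr-high cells, with 1 line per mouse and the mean ± SD of the 4 mice beside the points. Prkcd rises from under 1.1 CPM to between 38.9 and 141 CPM in every mouse, Prkca falls from above 72 CPM to below 20 CPM, and the lines of Prkce, Prkcz, Prkci and Prkcq overlap between the classes.

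The other 3 tested isoforms did not pass the threshold. Prkce, the epsilon isoform, was at 473, 481, 533 and 434 CPM in Synpr-high and 636, 517, 480 and 495 CPM in Synpr-low cells, and its change of -0.10 had a 95% interval of -0.39 to 0.19. Prkcz, whose product is the atypical zeta isoform, was at 110.8 ± 17.4 and 114 ± 15.6 CPM, a change of 0.0093 with an interval of -0.29 to 0.31. Both intervals stayed within 0.39 of 0 on the log2 scale. That of Prkci, from -1.02 to 0.42, was wide and does not bound a 2-fold change. Prkci was lower in Synpr-high cells in 4 of 4 mice, with sums that overlapped between the classes. An exon of Prkce overlaps one of an unnamed gene model on the same strand, which leaves some of its reads uncertain. In all, 3 of the 6 tested isoforms passed the threshold, beside 8.82% of all 13641 genes tested. The 1 that was higher stands beside 4.48% of genes and the 2 that were lower beside 4.34%. The median change of the 6 isoforms was -0.20, beside -0.00060 over all genes. With the mouse as a block, 1995 genes in place of 1203 passed, and the same 3 isoforms were among them.

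Single-cell counts gave the share of cells behind these levels. After each cell was thinned to 20000 counts, Prkcd had a count in 175 of 406 Synpr-high cells (43.1%, 95% Clopper-Pearson interval 38.2 to 48.1%) and in 5 of 521 Synpr-low cells (0.960%, 0.312 to 2.23%). Median totals before thinning were 133490 and 129137 counts. By mouse, the Synpr-high share was 57.6% in the blindly sampled mouse and 40.2%, 27.1% and 45.6% in projection mice 1, 2 and 3. The blindly sampled mouse was highest and projection mouse 2 lowest, as for the level. Prkca had a count in 61 of the 406 Synpr-high cells (15.0%, 11.7 to 18.9%) and 257 of the 521 Synpr-low cells (49.3%, 45.0 to 53.7%), and its Synpr-low share kept to 47.2 to 51.2% over the 4 mice. Unthinned, Prkcd was counted in 227 of 438 and 27 of 573 cells and Prkca in 108 of 438 and 366 of 573. Thinning left out 84 shallow cells, 67 of them from the blindly sampled mouse. These intervals cover counting error only, and those for the pooled cells ignore the spread between mice.

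**Figure D3:**
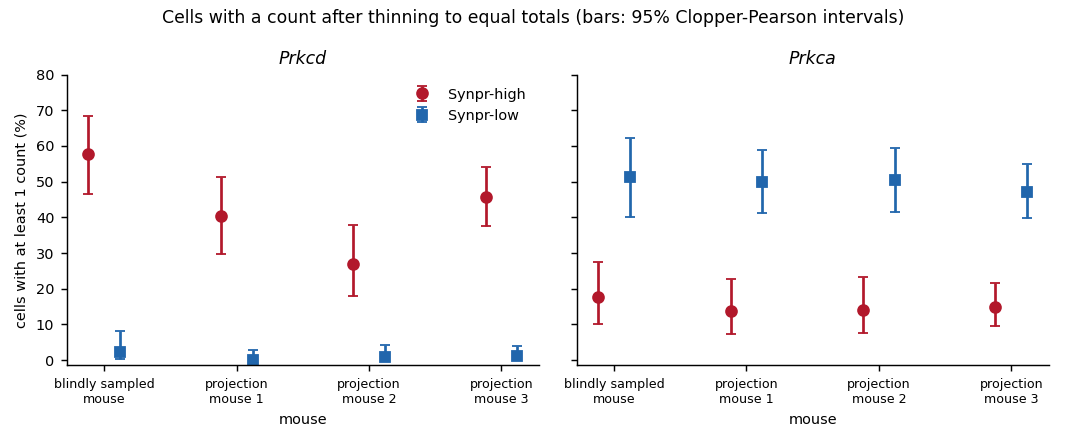
Share of cells with at least 1 count of Prkcd or Prkca after thinning (y axis, percent) in each mouse, for Synpr-high and Synpr-low cells, with 95% Clopper-Pearson intervals as bars. For Prkcd the Synpr-high shares run from 27.1 to 57.6% with the Synpr-low shares at 2.33% or less, and for Prkca the Synpr-low shares stay between 47.2 and 51.2%, above every Synpr-high share.

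Prkcd was far from even among Synpr-high cells. In the deposited counts, the 10% of these cells with the most Prkcd held 60.7% of its 5084 counts, against 33.2% for Prkce. At least 100 CPM of Prkcd was seen in 54 of 113 Synpr-high cells of the blindly sampled mouse, 26 of 88 and 11 of 88 of projection mice 1 and 2, and 51 of 149 of projection mouse 3. No Synpr-low cell reached 100 CPM, and the highest single cell had 34.0 CPM. Synpr-low cells were likewise uneven for Prkca, with the top 10% holding 49.5% of its 5762 counts and at least 100 CPM in 29.6 to 33.3% of the cells of each mouse. In thinned Synpr-high cells, Prkca had a count in 18 of 175 cells with Prkcd (10.3%) and in 43 of 231 cells without it (18.6%). The former share was the lower one in each of the 4 mice. In unthinned counts the shares were 22.5% and 27.0%, and the order turned in the blindly sampled mouse, at 13 of 65 and 9 of 48 cells. Cells of 1 mouse are not replicates, and no test was made.

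The retrograde labels give a division of the cells that uses no count. RSC-labeled cells carried more Prkcd and less Prkca than LEC-labeled cells. Prkcd was at 94.3, 38.0 and 97.1 CPM in the RSC-labeled cells of projection mice 1, 2 and 3 and at 17.3, 8.66 and 12.6 CPM in their LEC-labeled cells, without overlap, as for 9.98% of genes. The log2 fold change was 2.61 (standard error 0.39, 95% interval 1.72 to 3.49, adjusted p = 0.0099 in edgeR's quasi-likelihood test, higher in 3 of 3 mice). Prkca was at 31.1, 22.8 and 24.2 CPM in RSC-labeled and 68.0, 87.9 and 79.7 CPM in LEC-labeled cells. It too did not overlap, as for 13% of genes in that direction, with a change of -1.56 (standard error 0.19, 95% interval -2.0 to -1.11, adjusted p = 0.0056 in the same test, lower in 3 of 3 mice). On plate 12, where 34 RSC-labeled and 44 LEC-labeled kept cells lay side by side, the levels were 96.1 and 23.0 CPM for Prkcd and 25.1 and 82.5 CPM for Prkca. With projection mouse 1 left out both calls held. Prkca missed the threshold without projection mouse 2, at a change of -1.39 (adjusted p = 0.0911 in edgeR's quasi-likelihood test), and without projection mouse 3, at -1.49 (adjusted p = 0.124). Prkcd missed it without projection mouse 3, at a change of 2.39 (adjusted p = 0.196).

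Prkcb was lower in RSC-labeled cells in 3 of 3 mice, at 316, 298 and 279 CPM against 363, 345 and 344 CPM, and the sums did not overlap, but its change of -0.20 (standard error 0.09) missed the threshold at an adjusted p of 0.341 in edgeR's quasi-likelihood test. Of all genes, 13% were likewise apart in that direction. The changes of Prkce and Prkcz, 0.11 and 0.032, had intervals of -0.15 to 0.36 and -0.27 to 0.34. That of Prkci was -0.49 with an interval of -1.32 to 0.35, lower in 3 of 3 mice with overlapping sums. In this comparison 2 of the 6 tested isoforms passed, beside 3.83% of 13242 genes. The summed oligodendrocyte markers ran from 26.6 to 765 CPM over the RSC-labeled and from 84.5 to 313 CPM over the LEC-labeled sums, and their part was not tested. In unlabeled cells of the projection mice the levels were 17.3, 8.31 and 20.7 CPM for Prkcd and 41.2, 49.4 and 32.6 CPM for Prkca.

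The labels and the Synpr classes largely coincided, since 213 of 247 RSC-labeled but 45 of 286 LEC-labeled cells were Synpr-high. Within Synpr-high cells, Prkcd was at 107, 48.1 and 103 CPM in the RSC-labeled and 55.6, 47.2 and 75.8 CPM in the LEC-labeled cells of projection mice 1, 2 and 3. The RSC-labeled sum was the higher one in each mouse, yet the groups overlapped and mouse 2 showed hardly any gap. The change of 0.52 (standard error 0.46, 95% interval -0.46 to 1.51) did not pass the threshold. Prkca in the same cells was at 13.1, 12.4 and 16.9 CPM in the RSC-labeled and 18.9, 29.1 and 0.293 CPM in the LEC-labeled cells, the last from 1 count in 16 cells. Prkcb was lower in the RSC-labeled cells without overlap, at 293, 268 and 258 CPM against 327, 305 and 370 CPM, as 4.19% of genes were. Its change of -0.30, with an interval of -0.64 to 0.04, did not pass the threshold. By edgeR none of the 6 isoforms, and 0 of 12410 genes, passed within Synpr-high cells. At an unadjusted p under 0.05 there were 508 genes (4.09%) and none of the isoforms, and DESeq2 called 28 genes and again no isoform. The LEC-labeled Synpr-high sums held only 11 to 18 cells per mouse, and the interval of Prkcd leaves room for a change above 2-fold.

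In Synpr-low cells the RSC label went with more Prkcb, at 478, 411 and 634 CPM in projection mice 1, 2 and 3 against 379, 354 and 339 CPM for the LEC label. The groups did not overlap, as for 4.73% of genes. The change was 0.55 (standard error 0.16, 95% interval 0.20 to 0.89), higher in 3 of 3 mice, with an adjusted p of 0.229 in edgeR's quasi-likelihood test, over a range of 0.0256 with DESeq2 to 0.682 in the alternatives. Its RSC-labeled sums came from 12, 14 and 8 cells. The difference between the Prkcb changes of the Synpr classes was -0.85 (standard error 0.23, 95% interval -1.33 to -0.36), not passed by edgeR (adjusted p = 0.306) though passed by DESeq2 (adjusted p = 0.0173). Prkcd rested on too few counts to be compared here, with 2, 0 and 2 counts in the RSC-labeled and 1, 2 and 5 in the LEC-labeled cells. Prkca was at 159, 62.0 and 147 CPM in the RSC-labeled and 90.0, 101 and 95.3 CPM in the LEC-labeled cells, with projection mouse 2 on the other side from mice 1 and 3. No isoform passed the threshold in Synpr-low cells, where 0.193% of genes did, and none for the difference between the classes, where 0.0645% did.

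**Figure D4:**
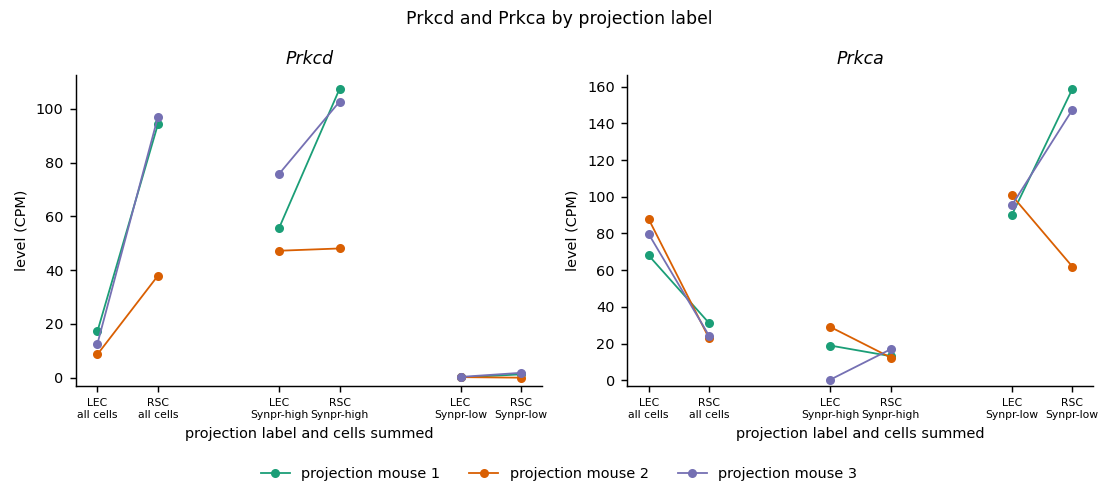
Level of Prkcd and Prkca (y axis, CPM of the summed counts) in LEC-labeled and RSC-labeled cells, for all kept cells, Synpr-high cells and Synpr-low cells, with 1 line per projection mouse. The lines of all cells run upward for Prkcd in every mouse, from 8.66 to 17.3 CPM to 38.0 to 97.1 CPM, and downward for Prkca, while within each Synpr class the LEC and RSC values of both genes overlap.

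Synpr-low cells were divided further by Slc30a3, the gene of a vesicular zinc transporter that marks the second claustrum population, at 50 CPM per cell. The 343 Slc30a3-high cells carried more Prkca than the 230 Slc30a3-low ones. The values of the blindly sampled mouse and projection mice 1, 2 and 3 were 104, 113, 101 and 89.5 CPM in Slc30a3-high and 31.1, 50.3, 43.2 and 61.0 CPM in Slc30a3-low cells. The groups did not overlap, as for 2.3% of genes, and both lay above the Synpr-high cells, where no sum passed 19.1 CPM. The change was 1.14 (standard error 0.20, 95% interval 0.70 to 1.58, adjusted p = 0.0211 in edgeR's quasi-likelihood test, higher in 4 of 4 mice). Without projection mouse 1, 2 or 3 the change was 1.12, 1.13 and 1.35, with adjusted p values of 0.185, 0.219 and 0.0598 in that test. It was 1.15 in thinned cells (adjusted p = 0.0911), 1.27 with a Synpr limit of 50 CPM (adjusted p = 0.0795) and 0.86 with a Slc30a3 limit of 100 CPM (adjusted p = 0.0865), so the direction held in each while the call was lost. The 3 genes of the second population, Slc30a3 among them, summed to 960 to 1945 CPM in Slc30a3-high and 226 to 1705 CPM in Slc30a3-low cells. These ranges overlapped, so Slc30a3-low cells were not free of that population's markers. Markers of layer 6 summed to 18.5 to 60.6 CPM in Slc30a3-high and 347 to 492 CPM in Slc30a3-low cells. Oligodendrocyte markers summed to 61.9 to 939 CPM and 17.0 to 51.1 CPM. The part of these markers was not tested. Prkca was the 1 isoform of 6 to pass, beside 0.617% of 13121 genes. With the mouse as a block 226 genes in place of 81 passed, with Prkca the 1 isoform among them.

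The other tested isoforms did not pass between the Slc30a3 classes. Prkcb was at 427 ± 61.7 and 421 ± 94.5 CPM (SD, n = 4 mice), with a change of 0.026 and an interval of -0.35 to 0.40. Prkce was lower in Slc30a3-high cells in 4 of 4 mice, at 513 ± 62.2 and 562 ± 77.9 CPM, and its change of -0.13 with an interval of -0.42 to 0.17 did not pass. Prkcd stayed near 0 in both groups, at up to 0.416 CPM in the Slc30a3-high and 2.35 CPM in the Slc30a3-low sums.

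**Figure D5:**
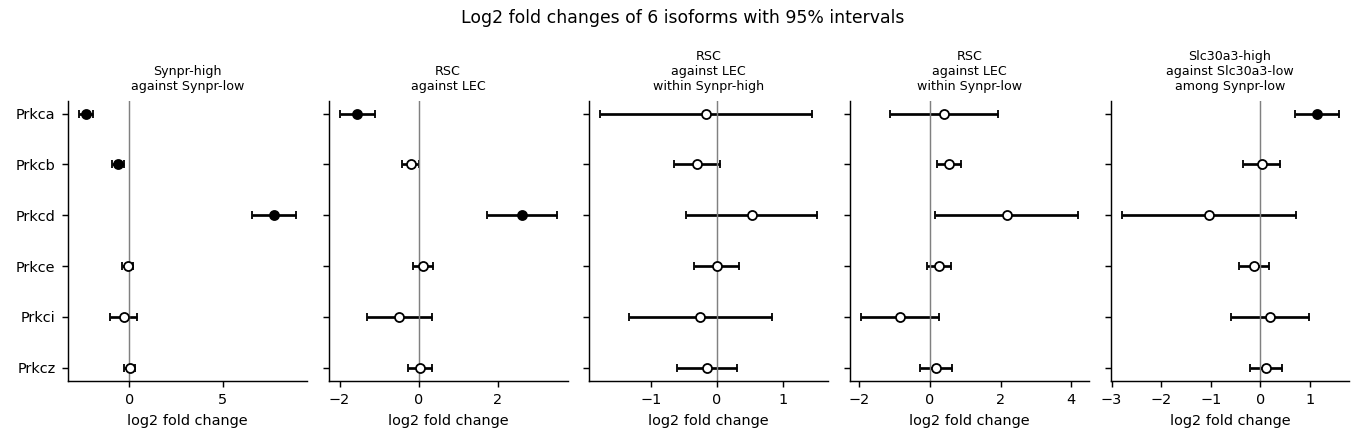
Log2 fold change (x axis, each panel on its own scale) of the 6 tested isoforms in 5 comparisons, with 95% intervals as bars and filled points where the adjusted p is under the threshold of 0.05. Filled points are Prkca, Prkcb and Prkcd for the Synpr classes, Prkca and Prkcd for the projection labels, none within a Synpr class, and Prkca for the Slc30a3 classes.

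Genes around the kinases were taken from lists of 64 genes, of which 54 were tested between the Synpr classes. Here 7 were higher and 2 lower in Synpr-high cells, beside 8.82% of all genes, with a median change of 0.077. Phospholipases C, which make diacylglycerol, gave 3 of the higher ones. These were Plcb1, at 331 ± 41.0 and 191 ± 21.8 CPM with a change of 0.85 (adjusted p = 0.00085 in edgeR's quasi-likelihood test), and the less abundant Plcd1 and Plcd3, with changes of 1.62 and 1.75. Of the diacylglycerol kinases, which remove that lipid, Dgka was higher by 1.43 and Dgkg lower by a change of -0.70. Akap5, whose product anchors PKC and other kinases at synapses, was higher by 1.1, and Wwc1, whose product KIBRA binds the atypical zeta isoform, by 0.91. Gap43, a growth-cone protein and classic PKC substrate, was at 1346 ± 33.8 and 811 ± 72.7 CPM, a change of 0.78. Prkcdbp, whose product was named for binding the delta isoform, fell from 59.6 ± 11.6 CPM in Synpr-low to 17.5 ± 5.40 CPM in Synpr-high cells, a change of -1.73 (adjusted p = 0.0017 in the same test), and so ran against Prkcd. Each of these changes had the same direction in 4 of 4 mice.

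Apart from those of Gap43 and Plcd1, these calls were less firm than those of Prkcd and Prkca. Over 17 alternatives, Gap43 and Plcd1 kept their calls in all. Plcb1 and Prkcdbp lost theirs in 1, with only the unlabeled cells, where their changes were 0.54 and -0.75 (adjusted p = 0.102 and 0.254 in edgeR's test). Plcd3, Dgka, Akap5, Wwc1 and Dgkg also missed the threshold there, at changes of 1.59, 0.67, 0.70, 0.82 and -0.44. Without projection mouse 1, 2 or 3, adjusted p values were 0.209, 0.226 and 0.0794 for Plcd3, 0.0744, 0.117 and 0.0518 for Dgka, 0.0940, 0.172 and 0.122 for Akap5, 0.111, 0.164 and 0.147 for Wwc1, and 0.103, 0.211 and 0.294 for Dgkg. Between RSC-labeled and LEC-labeled cells, 2 of 52 tested genes were higher and 3 lower, beside 3.83% of all genes in either direction. Plcb1 and Akap5 were higher by 0.89 and 0.93, and Prkcdbp and Dgkg lower, with changes of -2.15 and -1.02, all in 3 of 3 mice. Prkcdbp stood at 15.8 ± 3.96 CPM in RSC-labeled and 72.5 ± 9.81 CPM in LEC-labeled cells. The fifth was Unc13c, a diacylglycerol-binding priming factor of synaptic vesicles, at 0.102 ± 0.176 and 7.37 ± 3.50 CPM. Without projection mouse 2 or 3 none of these 5 stayed under the threshold, at adjusted p values of 0.0503 to 0.264, and with the mouse as a block Dgkg and Unc13c were at 0.0511 and 0.0727. Within the Synpr-high and Synpr-low classes 0 of 51 list genes passed, beside 0% and 0.193% of all genes. Between the Slc30a3 classes Gap43 alone of 54 passed, beside 0.617% of all genes, with a change of -0.81 (adjusted p = 0.0042 in edgeR's test). Without projection mouse 2 its adjusted p was 0.0924 in edgeR's test.

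Likeness to Prkcd and Prkca was measured over 20 sums by mouse, projection label and Synpr class, among 8601 genes with a mean of at least 10 CPM, as Pearson's r of log2(CPM + 1). The nearest gene to Prkcd was Synpr, at 0.97, which the division of the cells by Synpr favours. Fermt1 followed at 0.97, ranging from 0 to 30.9 CPM over the sums, and 1500009L16Rik at 0.96. Nearest to Prkca were Gpd1 at 0.93, Ldb2 at 0.91 and Galnt9 at 0.89. The 20 sums come from 4 mice and share the division by Synpr, so these values are descriptions. Over the same sums Prkcd ranged from 0 to 141 CPM and Prkca from 0.293 to 159 CPM, against 408 to 655 CPM for Prkce and 90.7 to 150.1 CPM for Prkcz.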

How the data were processed

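Counts per gene and cell, which the authors deposited without normalization in 1 table per experiment, were used with the deposited tables of animal and projection label. Per the paper's methods, reads were tagged to cell barcodes and UMIs and aligned with STAR. Totals are given there in reads, so counts were taken as reads and several may come from 1 molecule. The submitters' processing notes name NCBIM37 and Seurat. The methods name major version 3 of Seurat. The aligner's version, the annotation and strand use are not given in the sources used here. Single cells were harvested by hand, and no doublet caller was run. Spike-ins were left out, and a gene missing from 1 table was set to 0 there. Counts were summed per mouse and class (at least 5 cells) and tested in edgeR 4.0.16 (R 4.3.3; filterByExpr, TMM, quasi-likelihood F test, p adjusted over all genes after Benjamini and Hochberg, threshold 0.05). Standard errors are the change divided by the square root of F. Levels are CPM of the sums. DESeq2 1.42.0, each mouse left out and the other alternatives are in the closing section. Projection contrasts within Synpr classes shared 1 fit of 4 groups, and the Slc30a3 contrast 1 fit of 3. Cells were thinned without replacement in numpy.

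The members and lists were chosen with earlier results of these data known, so no p was adjusted over a list alone. Of the listed members, 1 is not reported here. Named genes were the 8 isoforms, the genes that set the cells and classes, per comparison up to 10 list genes past the threshold with the same direction in every mouse, and the 3 genes most like Prkcd and Prkca.

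Sums of 1 mouse come from the same animal, which the main fits did not model. Their deviations from group means correlated across genes at a median of 0.168 over 4 pairs of Synpr sums (0.138 to 0.503), 0.0421 over 3 pairs of projection sums and 0.133 over 12 pairs of Slc30a3 sums. The fits were tested on simulated data, where each missed most of the 2-fold changes put in. Each also missed many of the 4-fold changes, and the contrast within Synpr-high cells missed most of them. A change that did not pass is therefore not shown to be absent. GENCODE M21 gave transcript lengths and overlaps, for names and relations only, and RefSeq promoters matched 6 of the 8 isoforms.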

Additional observations from a re-analysis of the deposited data

Results flagged for a closer look

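Of 54 sets of 4 mice looked at, 8 had a mouse far from the other 3. The sets are not independent, since level and share of a gene go together and Slc30a3-high cells are part of the Synpr-low class. The number of flagged sets was therefore not set against a rate by chance. The gap divided by the range was 0.836 for the share of Prkci in Synpr-low cells and 0.875 in Slc30a3-high cells, lowest in projection mouse 2 at 1.12% and 1.21%. For Prkcq in Synpr-low and Slc30a3-high cells it was 0.963 and 0.964 for the level and 0.964 and 0.965 for the share, all from projection mouse 2 at 1.01 and 1.46 CPM. The 21 Prkcq counts in the Synpr-low cells of that mouse came from only 2 cells. In Slc30a3-low cells it was 0.932 for Prkce, highest in the blindly sampled mouse at 678 CPM, and 0.851 for Prkcz, lowest there at 85.0 CPM.

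Prkcb moved in opposite directions between RSC-labeled and LEC-labeled cells of the 2 Synpr classes, lower in 3 of 3 mice in Synpr-high and higher in 3 of 3 in Synpr-low cells. The difference of -0.85 had an adjusted p of 0.306 in edgeR's quasi-likelihood test.

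The 101 harvested cells that were not kept, with 1284390 counts in all, also carried isoform counts. The levels over their sum were 17.1 CPM for Prkca, 105 CPM for Prkcb, 38.2 CPM for Prkcd, 202 CPM for Prkce, 20.2 CPM for Prkci, 16.4 CPM for Prkcq and 64.6 CPM for Prkcz, against the 2.34 CPM that 3 counts make.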

How the results depend on the processing

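Prkcd and Prkca kept their direction and call between the Synpr classes under all 17 alternatives. The cause of the changes below was not tested. Without 1 mouse, genes called between the Synpr classes ran from 545 to 1581 (1203 with all), and were 1989 by DESeq2, 1995 with the mouse as a block and 601 with only unlabeled cells. For RSC against LEC (507 genes, 2 isoforms) they were 21 to 344 and 0 to 2 without 1 mouse, 1233 genes by DESeq2 and 769 in thinned cells. Within Synpr-high cells (0 genes) DESeq2 gave 28 and no filter 5. Within Synpr-low cells (24) DESeq2 gave 403 genes and 1 isoform, no filter 61, the mouse as a block 15, leaving out plate 12 gave 12 and leaving out 1 mouse 0 to 7. For the difference between the classes (8) DESeq2 gave 170 and 1 isoform, no filter 24, the block 1, at least 2 counts of Snap25 and Slc17a7 gave 3, Synpr limits of 50 and 500 CPM gave 3 and 4, leaving out cells with Gad1 and Gad2 gave 5 and 1 mouse 0 to 1. For the Slc30a3 classes (81 genes, 1 isoform) DESeq2 gave 332 genes, the block 226 and leaving out 1 mouse 6 to 57, with 0 to 1 isoforms, and 0 isoforms passed in thinned cells and with limits of 50 CPM for Synpr or 100 CPM for Slc30a3. The block changed no isoform's call.

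Changes that reversed sign had not passed the threshold. Between the Synpr classes, Prkcz (0.0093) was at -0.043 with total counts in place of TMM, at -0.0085 in thinned cells and at -0.033 to 0.090 without 1 mouse, and Prkce (-0.099) at -0.20 to 0.011 without 1 mouse. For RSC against LEC, Prkcz (0.032) was at -0.0037 with total counts and -0.075 to 0.10 without 1 mouse, and Prkce (0.11) at -0.050 to 0.19. Within Synpr-high cells, Prkce (-0.0043) was at 0.022 without a filter, 0.0038 with total counts, 0.0050 with at least 2 counts, 0.016 and 0.019 with Synpr limits of 50 and 500 CPM, 0.080 without plate 12, 0.0068 without cells with Gad1 and Gad2, and -0.019 to 0.029 without 1 mouse. There Prkca (-0.16) was at 1.01 in thinned cells and -0.90 to 0.62 without 1 mouse, Prkcz (-0.16) at -0.33 to 0.0024, and Prkci (-0.25) at 0.37 in thinned cells. Within Synpr-low cells, Prkcd (2.17, from few counts) was at -1.28 in thinned cells. For the difference between the classes, thinning gave 0.76 for Prkca (-0.57) and 1.92 for Prkcd (-1.64). Between the Slc30a3 classes, Prkcb (0.026) was at -0.018 in thinned cells, -0.0068 with a Slc30a3 limit of 20 CPM and -0.046 to 0.13 without 1 mouse, Prkcz (0.12) at -0.070 in thinned cells, and Prkci (0.19) at -0.053 with a limit of 100 CPM.

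Scaled by transcript length, the share of Prkca in Synpr-low cells was 3.75% in place of 6.86% and that of Prkcd in Synpr-high cells 14.2% in place of 9.17%. The share of Synpr-low cells with Prkca, 49.7% as the mean of mice, was 41.0% at 10000 counts per cell and 34.7% for at least 2 counts. Total counts in place of TMM, leaving out plate 12 or the 4 cells with Gad1 and Gad2, and values within plates were chosen after seeing the data. Prkcq and Prkch had too few counts for a test.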
